A study of Mus musculus with 12 samples.

Results

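Macrophages that had met lipopolysaccharide (LPS, a component of the outer wall of Gram-negative bacteria) before were compared with resting macrophages across all measured genes. The comparison used 6 of the 12 arrays of the series, the 3 of LPS-tolerant cells and the 3 of untreated cells, chosen by their sample titles and paired by replicate number. All cells were bone marrow-derived macrophages of female C57BL/6 mice aged 6 to 8 weeks, grown from marrow for 7 days in medium conditioned by L929 fibroblasts, a source of macrophage colony-stimulating factor. Tolerant cells received LPS for 8 h, rested for 16 h without it and received LPS again for 4 h. Untreated cells received no LPS. The 3 acute arrays (LPS once for 4 h) and the 3 recovered arrays (LPS for 8 h, 88 h of rest, LPS for 4 h) entered the statistical model and added to its estimate of the spread. From each sample 200 ng of RNA was labelled with Cy3 and hybridised to a single-colour Agilent array.

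LPS is sensed by Toll-like receptor 4 with its partners CD14 and MD-2, and the receptor signals through the adaptors MyD88 and TRIF to NF-kB, AP-1 and interferon regulatory factors. A macrophage that meets LPS again soon after a first exposure makes less of many inflammatory cytokines, a state called endotoxin tolerance, while other genes stay inducible. The comparison with resting cells asks what distinguishes such cells from macrophages that have never met LPS. Both LPS exposures and the longer culture coincide in it, so their parts cannot be told apart.

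Per the labels the replicates were independent experiments, and whether each used separate mice is not stated, so p-values measure the spread between these arrays. In the 6 arrays replicate 1 lay on slide 1, replicate 2 on slide 2, and replicate 3 on slide 3, which was scanned on the second day. Experiment, slide and scan day therefore cannot be told apart. Between 47.8% and 50.4% of the spots of tolerant arrays and between 50.5% and 54.9% of those of untreated arrays were well above background. Across genes, arrays correlated at r of 0.985 to 0.992 within tolerant cells, 0.980 to 0.991 within untreated cells and 0.951 to 0.963 between the groups. Over the 6 arrays principal component 1 carried 64.4% of the variance and parted tolerant from untreated arrays, and component 2 (20.7%) parted replicate 3 of both groups from replicates 1 and 2.

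The model called 7669 of 20452 genes (37.5%) at a Benjamini-Hochberg adjusted p under 0.05. In tolerant cells 3845 genes (18.8%) were higher and 3824 (18.7%) lower, and the median log2 change over all genes was -0.02. Without the replicate number as a block 4067 genes were called, 2304 higher and 1763 lower, and each of them was also called with it. By measured difference the rises were larger than the falls. More than 2-fold differences were called for 1454 genes higher and 1077 lower, more than 8-fold for 238 and 45, and more than 64-fold for 25 and 0. These counts include genes for which only a bound is given below, so some of the counted folds are not measured sizes. Such a bound applies to 114 of the genes called higher and 188 of those called lower, well above background only in the brighter group. All levels below are log2 intensities scaled to the 75th percentile of each array, and all changes are log2 differences, tolerant minus untreated, ± standard error (n = 3 arrays per group). Levels of different genes are not compared, since probes differ in brightness. Genes that no array of the dimmer group measured well above background get only a bound, written "at least N-fold" and taken from the brighter mean over the higher of the dimmer signal and the lowest signal above background. Where only some arrays of the dimmer group were well above background, the change is still given as measured. Its size can then rest partly on signals near background. In bulk RNA, fewer cells of a type and less RNA per cell cannot be told apart.

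**Figure D1:**
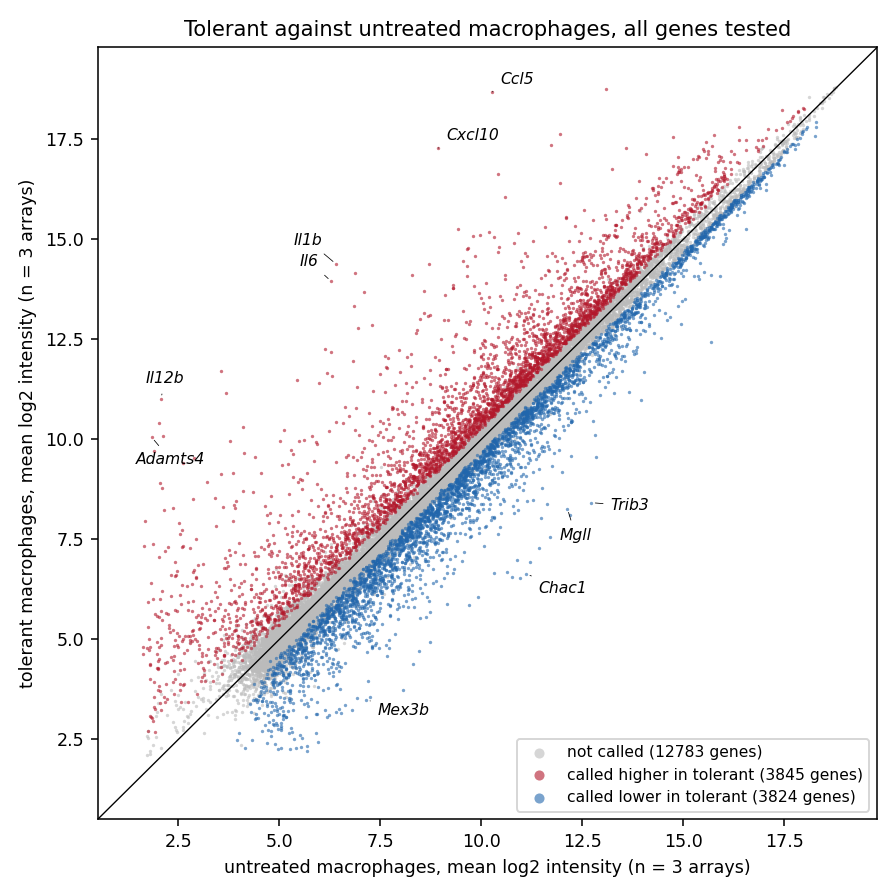
Mean log2 intensity of 20452 genes in tolerant cells (vertical axis, n = 3 arrays) against untreated cells (horizontal axis, n = 3 arrays), with the line of equality. Red points are the 3845 genes called higher and blue points the 3824 called lower in tolerant cells; red points reach farther from the line than blue ones.

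The largest rises were in secreted inflammatory proteins. Il12b, the p40 chain shared by interleukins 12 and 23, had levels of 11.22, 11.67 and 10.15 on the tolerant arrays, against 2.04, 2.17 and 2.00 on the untreated arrays. It was at least 132-fold higher in tolerant cells (adjusted p = 2.26e-07), and its probe lies on chromosome 11 at 44227121 to 44227180 (mm9). Ccl5, a chemokine that draws T cells and monocytes, had 18.89, 18.80 and 18.37 in tolerant cells and 10.23, 9.78 and 10.82 in untreated cells, a rise of 8.41 ± 0.24 or 341-fold (adjusted p = 3.21e-08). Cxcl10, an interferon-induced chemokine, had 17.69, 17.15 and 17.02 in tolerant cells and 8.66, 8.76 and 9.38 in untreated cells, a rise of 8.35 ± 0.23 (adjusted p = 3.21e-08). For these genes the lowest tolerant array lay far above the highest untreated array.

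Il1b, the main secreted interleukin 1, had levels of 14.08, 15.22 and 13.85 in tolerant cells, against 7.13, 5.97 and 6.09 in untreated cells (rise of 7.98 ± 0.36, adjusted p = 5.32e-07). Il6 had 14.60, 14.29 and 12.97 in tolerant cells, against 7.85, 5.75 and 5.24 in untreated cells (rise of 7.67 ± 0.34, adjusted p = 4.83e-07). Both groups spread widely for Il6, with replicate 1 highest and replicate 3 lowest in each. Gbp5, a guanylate-binding protein of cell-autonomous defence, had 14.31, 14.04 and 14.10 in tolerant cells, against 6.43, 6.72 and 7.47 in untreated cells (rise of 7.28 ± 0.21, adjusted p = 3.21e-08).

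Several of the 10 largest rises were not cytokines. Adamts4, a protease that cuts the cartilage proteoglycan aggrecan, had levels of 10.31, 10.04 and 9.81 in tolerant cells, against 1.79, 2.01 and 1.71 in untreated cells, and was at least 68.0-fold higher (adjusted p = 3.21e-08). Its probe lies on chromosome 1 at 173189952 to 173190011 (mm9). Shisa3, an endoplasmic reticulum protein that in other cells restrains Wnt and FGF receptors, had 10.44, 10.69 and 9.09 in tolerant cells, against 2.27, 2.20 and 1.86 in untreated cells. It was at least 69.2-fold higher (adjusted p = 5.16e-08), and its probe lies on chromosome 5 at 68003415 to 68003474 (mm9). Gfi1, a transcriptional repressor of myeloid and lymphoid development, had 9.17, 9.23 and 8.35 in tolerant cells, against 1.95, 2.26 and 1.94 in untreated cells, and was at least 30.9-fold higher (adjusted p = 2.89e-08). Vgf, a secreted peptide precursor best known from neurons, had 10.21, 9.48 and 8.54 in tolerant cells, against 3.38, 2.55 and 1.89 in untreated cells, and was at least 43.7-fold higher (adjusted p = 3.21e-08). None of these 4 genes was well above background on any untreated array.

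The largest falls included enzymes of lipid and hormone metabolism. Mgll, which splits monoacylglycerols and so ends the action of an endocannabinoid, had levels of 8.47, 8.08 and 8.26 in tolerant cells, against 11.78, 12.12 and 12.49 in untreated cells (change of -3.86 ± 0.18, adjusted p = 6.54e-07; probe on chromosome 6 at 88778292 to 88778351, mm9). Dio2, which converts thyroxine to the active thyroid hormone, had 8.81, 8.18 and 7.30 in tolerant cells, against 12.15, 12.68 and 11.78 in untreated cells (change of -4.11 ± 0.20, adjusted p = 8.97e-07). The groups did not overlap for either gene. Sox7, an SRY-box transcription factor, had 4.66, 4.95 and 3.55 in tolerant cells, against 8.54, 8.72 and 7.70 in untreated cells (change of -3.93 ± 0.19, adjusted p = 8.76e-07).

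Adra2c, an adrenergic receptor that inhibits adenylate cyclase, had levels of 4.38, 3.32 and 2.99 in tolerant cells, against 7.19, 7.80 and 6.75 in untreated cells, and was at least 7.43-fold lower (adjusted p = 1.37e-05). Mex3b, an RNA-binding ubiquitin ligase, had 3.80, 4.46 and 2.21 in tolerant cells, against 7.73, 6.97 and 6.75 in untreated cells, and was at least 6.80-fold lower (adjusted p = 5.39e-05). Armc2, an armadillo-repeat gene, had 5.38, 4.31 and 4.41 in tolerant cells, against 8.23, 8.89 and 8.27 in untreated cells (change of -3.77 ± 0.28, adjusted p = 1.18e-05). The unnamed locus 0610040J01Rik had 6.57, 6.15 and 4.88 in tolerant cells, against 10.22, 9.61 and 9.23 in untreated cells (change of -3.82 ± 0.33, adjusted p = 3.05e-05). The remaining falls among the 10, Chac1, Trib3 and Phgdh, are stress response genes and are described with that list.

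**Figure D2:**
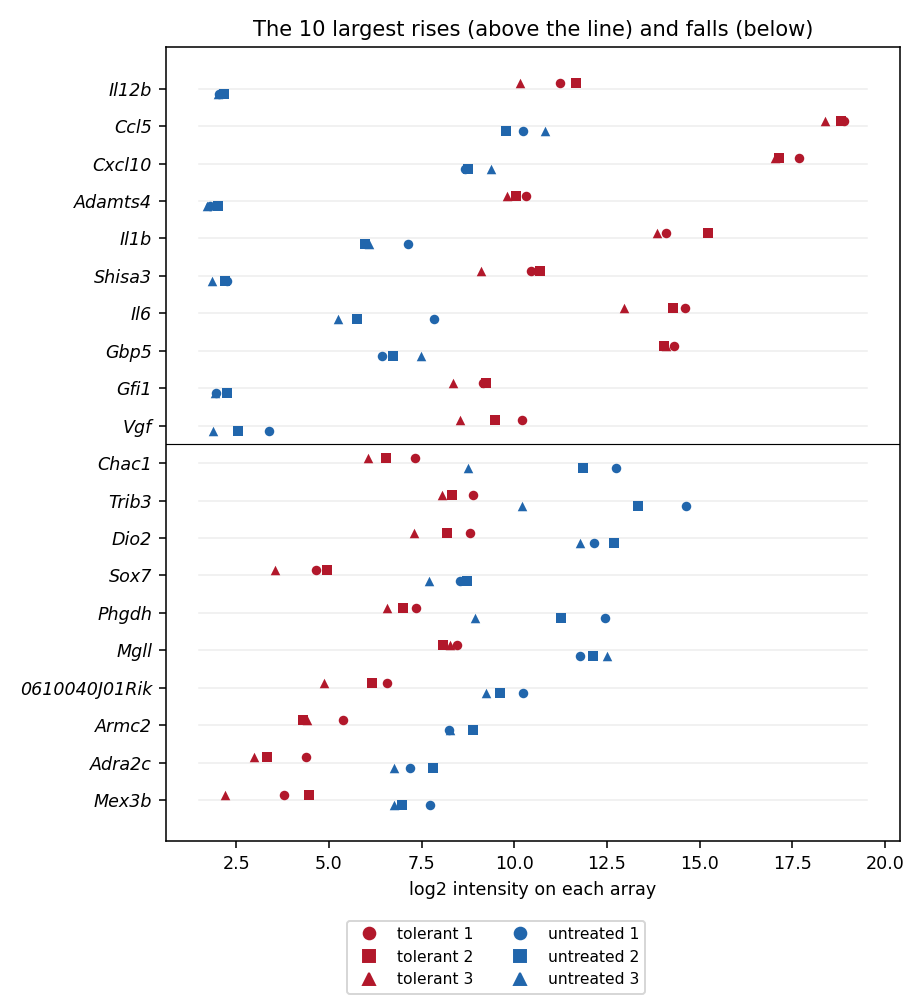
Log2 intensity on each of the 6 arrays (horizontal axis) for the 10 largest rises (above the line) and the 10 largest falls (below it), tolerant arrays in red and untreated arrays in blue, with a symbol per replicate. The groups do not overlap for any of the 20 genes, and the untreated array of replicate 3 stands well below the other untreated arrays for Chac1, Trib3 and Phgdh.

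Of 16 tested inflammatory cytokine ligands 14 rose and 0 fell, with a median change of 2.68 (9 rose with the authors' own log2 values). Tnf had levels of 15.29, 15.23 and 15.91 in tolerant cells, against 12.78, 12.90 and 12.58 in untreated cells (rise of 2.72 ± 0.19, adjusted p = 8.43e-06). With the authors' values its rise was not called (adjusted p = 0.121). Ifnb1, interferon beta, had 9.76, 8.72 and 7.90 in tolerant cells, against 2.01, 2.22 and 2.03 in untreated cells, and was at least 28.5-fold higher (adjusted p = 2.89e-06). The call was lost with the authors' values, where the change was 0.82 (adjusted p = 0.101). Csf2, the growth factor GM-CSF, also rose (adjusted p = 2.2e-06). Ebi3, a chain of interleukins 27 and 35, changed by 0.25 ± 0.12 and Il33, an alarmin, by 0.41 ± 0.51, and neither was called.

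Set against acute cells, which share the tolerant arrays used above, 9101 genes (44.5%) passed the threshold, of which 4410 (21.6%) were higher and 4691 (22.9%) lower in tolerant cells. Of the 40 tested genes among the 20 largest changes and the panel of LPS and macrophage genes, 8 were higher and 28 lower in tolerant than in acute cells. Without the replicate block 23 of the 40 were called. Il12b was lower in tolerant than in acute cells by 2.12 on the log2 scale, Il6 by 2.27, Tnf by 2.03 and Ifnb1 by 5.08, so each lay above its untreated level and below its acute level. Il1b lay above both, 1.66 ± 0.36 over acute cells (adjusted p = 0.00553), and so did Csf2, 2.78 over acute cells. The difference from acute cells was 0.07 ± 0.24 for Ccl5 (adjusted p = 0.843) and -0.08 ± 0.24 for Adamts4 (adjusted p = 0.808). Shisa3 had a mean level of 10.08 in tolerant cells, against 6.98 in acute cells (adjusted p = 3.4e-05).

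Chemokine ligands rose broadly, with 16 of 18 higher and 1 lower (median 3.54). Ccl2, which draws monocytes, had a mean level of 15.57 in tolerant cells, against 12.10 in untreated cells, with no overlap of the arrays (rise of 3.46 ± 0.28, adjusted p = 1.85e-05; 5.31 with the authors' values, not called, adjusted p = 0.0919). The neutrophil chemokines Cxcl3 and Cxcl1 rose by 6.13 ± 0.36 and 5.90 ± 0.19, and the call of Cxcl1 was lost with the authors' values (3.85, adjusted p = 0.118). Ccl6, a chemokine that resting myeloid cells make, fell by 0.62 on the log2 scale, a call lost without the block and without tolerant array 1 or untreated array 2 or 3. Cxcl11 was not called (-0.07 ± 0.18). In a list of dampening cytokines, decoys and cytokine receptors, 3 of 11 rose and 2 fell (median -0.15), against 18.8% and 18.7% of all genes. The 3 rises included the receptor Il4ra. Il18bp, the decoy of interleukin 18, rose by 3.18 ± 0.17 and Il1rn, the interleukin 1 receptor antagonist, by 2.67 ± 0.21, while Tgfb1 fell by 0.92. Il10 had 9.02, 8.32 and 8.25 in tolerant cells, against 9.87, 9.05 and 8.43 in untreated cells. These ranges overlap, and its change of -0.59 ± 0.20 (adjusted p = 0.0455) was not called without the block (adjusted p = 0.379) or without any 1 of 5 arrays of the comparison, tolerant 1, 2 or 3 and untreated 1 or 2 (adjusted p of 0.0854 to 0.170).

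**Figure D3:**
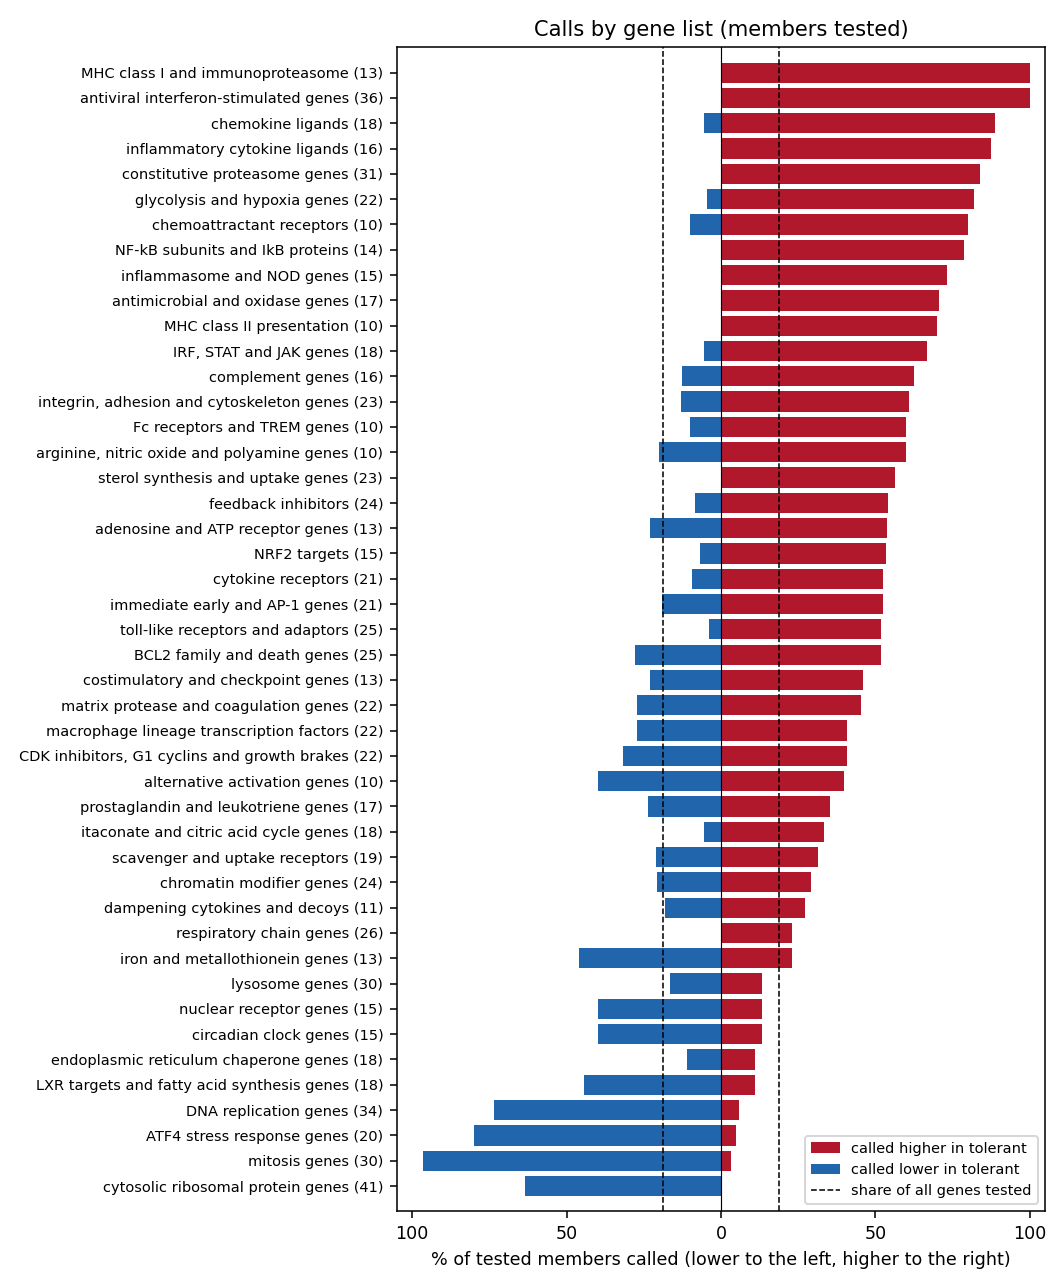
Share of the tested members of each gene list that were called higher (red, to the right) or lower (blue, to the left) in tolerant cells, with the number tested in brackets. Dashed lines mark the shares over all genes, 18.8% higher and 18.7% lower; antiviral and MHC class I genes reach 100% higher, and mitosis genes have 29 of 30 lower.

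Receptors for chemoattractants were mostly higher in tolerant cells, 8 of 10 against 1 lower (median 1.75). Cx3cr1, the fractalkine receptor of patrolling monocytes, had levels of 11.06, 10.86 and 10.46 in tolerant cells, against 8.07, 7.55 and 7.85 in untreated cells (rise of 2.97 ± 0.41, adjusted p = 0.000482). It was also 4.43 ± 0.41 higher than in acute cells (adjusted p = 6.03e-05). Cxcr4, which retains cells in the marrow, fell by 1.43 on the log2 scale. Of 21 cytokine receptor genes 11 rose and 2 fell (median 0.45). Il15ra rose by 2.40 ± 0.24 and Il17ra by 2.05 ± 0.19, while Il6ra fell by 1.53 and Il7r by 1.36. Csf1r, the receptor for macrophage colony-stimulating factor, had 17.76, 17.87 and 17.60 in tolerant cells, against 17.23, 17.18 and 17.46 in untreated cells (rise of 0.45 ± 0.12, adjusted p = 0.0148). That call was lost without tolerant array 2 or untreated array 1 or 2 (adjusted p of 0.0555 to 0.0769).

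Among Toll-like receptors and their adaptors 13 of 25 rose and 1 fell (median 0.45), and without the block 8 rose and 0 fell. Tlr2, which senses bacterial lipoproteins, rose by 2.05 ± 0.10, its partners Tlr6 and Tlr1 by 1.62 ± 0.12 and 1.35 ± 0.21, and Tlr3, a sensor of double-stranded RNA, by 1.87 ± 0.12. Tlr4 itself had levels of 10.83, 10.85 and 10.19 in tolerant cells, against 11.26, 11.00 and 10.79 in untreated cells. The groups overlap, and the change of -0.39 ± 0.13 (adjusted p = 0.0382) was not called without the block (adjusted p = 0.369), nor without tolerant 1 or 3, any 1 untreated array or acute array 2 (adjusted p of 0.0527 to 0.147). Its co-receptor Cd14 had 16.46, 16.72 and 16.65 in tolerant cells, against 15.25, 15.26 and 15.45 in untreated cells (rise of 1.29 ± 0.11, adjusted p = 3.56e-05). Myd88 rose by 1.08 ± 0.10, and Ticam1, which encodes TRIF, was not called (0.18 ± 0.17).

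The NF-kB subunits and their IkB inhibitors rose, 11 of 14 with 0 lower (median 1.22). Nfkbia, the IkB alpha that ends an NF-kB pulse, had levels of 17.09, 17.15 and 16.94 in tolerant cells, against 15.02, 14.94 and 14.64 in untreated cells (rise of 2.20 ± 0.10, adjusted p = 5.32e-07). Nfkbie, another IkB, rose by 3.55 ± 0.18 (adjusted p = 9.09e-07) and Nfkb2, the p100 precursor, by 2.62 ± 0.10 (adjusted p = 1.38e-07). Nfkbiz, an atypical IkB that helps to induce Il6, was not called (-0.21 ± 0.18), nor was Bcl3 (-0.04 ± 0.21). Promoters of both list leaders were searched on both strands for the kappa B letters GGG, any 2 bases and TTTCC, since NF-kB binds such sites. Of 3 promoters that the RefSeq table gives for Nfkb2, the one shown (GRCm38.p6, chr19:46304487-46304736, plus strand, 250 bases that end at the start site) holds 1 match, printed in capitals and beginning 11 bases before the start.
Nfkb2: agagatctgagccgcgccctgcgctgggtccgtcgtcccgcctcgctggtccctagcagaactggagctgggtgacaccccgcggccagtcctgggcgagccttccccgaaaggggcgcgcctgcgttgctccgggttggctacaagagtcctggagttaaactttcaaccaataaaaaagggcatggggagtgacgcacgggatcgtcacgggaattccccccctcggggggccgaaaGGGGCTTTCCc
The promoter window of Nfkbie holds no match to these letters. Looser forms of the site were not searched in either window. In the list 3 of 10 genes with a promoter in the RefSeq table have a match, against 1.7% of all 27025 genes.

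Feedback inhibitors of LPS signalling rose in 13 of 24 cases and fell in 2 (median 0.67). The falls numbered 1 without the block, tolerant array 1 or 2 or untreated array 1, and 4 under quantile normalization. Socs3, which blocks cytokine receptor signalling, had levels of 15.14, 15.30 and 15.14 in tolerant cells, against 10.30, 10.21 and 10.09 in untreated cells (rise of 4.99 ± 0.12, adjusted p = 1.39e-08). Tnfaip3, the deubiquitinase A20, had 13.52, 13.70 and 13.49 in tolerant cells, against 11.59, 11.91 and 11.46 in untreated cells (rise of 1.92 ± 0.14, adjusted p = 9.16e-06). Arrays within each group differed little for both genes. Irak3, the inhibitory kinase IRAK-M, had 12.87, 13.26 and 13.56 in tolerant cells, against 12.83, 12.54 and 12.47 in untreated cells (rise of 0.62 ± 0.17, adjusted p = 0.0182), a call lost without replicate array 2 or 3 of either group (adjusted p of 0.0631 to 0.0811), with quantile normalization (adjusted p = 0.0770) and on the authors' values (adjusted p = 0.0539). Socs1 rose by 4.29 ± 0.13 and Dusp2, a MAP kinase phosphatase, by 3.79 ± 0.15. Zfp36l1, which marks AU-rich messages for decay, changed by -3.25 ± 0.25 (adjusted p = 1.66e-05), whereas its relative Zfp36 rose by 1.18 ± 0.14. Cyld was called lower by its brightest probe, but its probes were called in opposite directions.

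Among immediate early and AP-1 genes 11 of 21 rose and 4 fell (median 0.38), against 18.8% and 18.7% of all genes. Maff, a small Maf protein, rose by 3.87 ± 0.24 and Batf2, an interferon-induced AP-1 factor, by 2.94 ± 0.14 (4.13 with the authors' values, not called, adjusted p = 0.0779). Fosl1 was at least 3.56-fold higher. Egr2 fell by 1.94, Batf3 by 1.80 and Jun by 0.84 on the log2 scale, and Myc fell by 1.16, a call lost without the block. Junb rose by 1.60 ± 0.15 and Fos by 1.45 ± 0.25.

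Every one of the 36 antiviral interferon-stimulated genes was higher in tolerant cells (median 2.73), and for each of them the 3 tolerant arrays all lay above the 3 untreated ones. Arrays were parted in this way, in either direction, for 34.5% of all genes. Oasl1, a regulator of interferon production, had levels of 16.86, 16.92 and 16.15 in tolerant cells, against 10.39, 10.47 and 10.40 in untreated cells (rise of 6.22 ± 0.16, adjusted p = 2.54e-08). Ifit1, which binds foreign RNA, rose by 5.10 ± 0.12, and Rsad2, which makes a chain-terminating nucleotide, by 5.48 ± 0.17. Mx1, a transcribed pseudogene in the reference annotation of this strain's genome, rose by 5.82 ± 0.17. The calls of Gbp5, Rsad2 and Mx1 were lost with the authors' values (changes of 5.04, 5.32 and 5.02, adjusted p of 0.0592 to 0.0976). Set against acute cells, 32 of the 36 were lower and 0 higher, with a median of -1.59. Genes of the IRF and STAT transcription factors and of the JAK kinases rose in 12 of 18 cases and fell in 1 (median 0.57). Irf7, which amplifies interferon production, rose by 4.49 ± 0.13 and Stat2 by 1.94 ± 0.10. Irf1 rose by 2.07 ± 0.12 but was not called on the authors' values (adjusted p = 0.0544). Irf8, a factor of the macrophage lineage, fell by 0.49 and was 2.22 lower than in acute cells. Its call against untreated cells was lost without the block, without any 1 tolerant array and without untreated array 2 or 3.

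Interferon-activated complexes bind a response element written here as GAAA, any 2 bases and GAAA again. Of the 29 antiviral genes with a RefSeq promoter, 14 hold it within the 250 bases, against 3.5% of all genes. The promoter of Gbp5, the largest rise of the list (GRCm38.p6, chr3:142496684-142496933, plus strand), holds 1 match, printed in capitals as its reverse complement and beginning 165 bases before the start.
Gbp5: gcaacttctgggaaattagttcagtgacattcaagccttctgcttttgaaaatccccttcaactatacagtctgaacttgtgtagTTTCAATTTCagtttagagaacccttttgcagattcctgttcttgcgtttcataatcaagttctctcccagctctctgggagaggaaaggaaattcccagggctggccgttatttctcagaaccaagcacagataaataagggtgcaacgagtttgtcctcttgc
The window of Oasl1, the next largest rise, holds none of these letters. A match describes the letters and was not tested as a binding site.

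Antigen presentation genes of both classes were higher in tolerant cells. In the MHC class I and immunoproteasome list 13 of 13 rose (median 1.21), with Tap1, a peptide transporter, up by 2.28 ± 0.13 and Nlrc5, the class I transactivator, by 1.92 ± 0.13. In the MHC class II list 7 of 10 rose (median 0.68), and 2 without the replicate block. H2-Ab1, a class II beta chain, had levels of 14.13, 14.22 and 13.07 in tolerant cells, against 12.90, 12.45 and 11.30 in untreated cells. The groups did not overlap, replicate 3 was lowest in each, and the change within pairs was 1.59 ± 0.21 (adjusted p = 0.00043; 0.0782 without the block). The calls of H2-Aa (0.87 ± 0.20) and H2-Eb1 (0.94 ± 0.22) were also lost without the block. H2-DMa, which loads peptides, rose by 1.10 ± 0.10, and the class II transactivator Ciita was not called (0.22 ± 0.32). Set against acute cells 7 of the 10 were higher and 0 lower (median 0.61).

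Of 13 costimulatory and checkpoint genes 6 were higher and 3 lower (median 0.82), against 18.8% and 18.7% of all genes. Cd40, which receives help from T cells, rose by 5.68 ± 0.15 and Cd274, the checkpoint ligand PD-L1, by 1.84 ± 0.22. Cd200r1, an inhibitory receptor, fell by 1.37 on the log2 scale. Cd86 was not called (0.57 ± 0.29), and it was 3.05 lower than in acute cells. Cd80 was called lower, but its probes were called in opposite directions.

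Antimicrobial and oxidase genes rose in 12 of 17 cases with 0 lower (median 1.21), and 11 of the 17 were also higher than in acute cells. Lcn2, which withholds iron from bacteria, had levels of 13.72, 13.71 and 14.82 in tolerant cells, against 11.02, 8.94 and 8.97 in untreated cells (rise of 4.44 ± 0.61, adjusted p = 0.000488). With the authors' values its change was 5.74 (adjusted p = 0.0518). Saa3, an acute-phase protein, rose by 5.68 ± 0.25 and lay 3.37 above acute cells. S100a8, a calprotectin chain, had 10.08, 11.42 and 11.17 in tolerant cells, against 7.71, 8.56 and 8.59 in untreated cells (rise of 2.61 ± 0.24, adjusted p = 4.71e-05). Camp, the cathelicidin precursor, rose by 2.25 ± 0.21, and both it and S100a8 are neutrophil markers, whose levels are given below. Lysozyme genes were not called (Lyz2 -0.31 ± 0.12, Lyz1 -0.03 ± 0.12).

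Enzymes that make nitric oxide, itaconate and prostaglandins were induced. Nos2, the inducible nitric oxide synthase, had levels of 12.78, 12.35 and 12.74 in tolerant cells, against 9.47, 9.67 and 8.96 in untreated cells (rise of 3.26 ± 0.28, adjusted p = 3.44e-05; 4.17 with the authors' values, adjusted p = 0.0737). Acod1, which makes itaconate, had 17.63, 17.66 and 17.58 in tolerant cells, against 11.37, 12.28 and 12.20 in untreated cells (rise of 5.68 ± 0.21, adjusted p = 1.29e-07). Ptgs2, which starts prostaglandin synthesis, had 13.70, 13.57 and 12.71 in tolerant cells, against 7.80, 6.98 and 5.78 in untreated cells (rise of 6.47 ± 0.23, adjusted p = 1.2e-07). All tolerant arrays lay above all untreated arrays for these enzymes.

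Of 10 arginine, nitric oxide and polyamine genes 6 rose and 2 fell (median 1.20), against 18.8% and 18.7% of all genes. Only 1 fell without the block or tolerant array 1. Slc7a2, an arginine transporter, rose by 6.21 ± 0.24 and Arg2, the mitochondrial arginase, by 2.74 ± 0.51, while Srm, which makes spermidine, fell by 1.00. Arg1 was not well above background in any group. Prostaglandin and leukotriene genes had 6 of 17 higher and 4 lower (median 0.24), against 18.8% and 18.7% of all genes. Without the block 2 were higher and 2 lower. The lower members also numbered 2 without tolerant array 1 or 2 or untreated array 2 or 3. Hpgd, which inactivates prostaglandins, fell by 1.64 on the log2 scale (SE 0.17), and Alox5, the leukotriene-forming lipoxygenase, fell by 0.86, a call lost without the block.

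Complement genes rose in 10 of 16 cases and fell in 2 (median 0.68). The falls numbered 1 without the block, tolerant array 3 or untreated array 2 or 3, and 4 under quantile normalization. Cfb, the protease of the alternative pathway, had levels of 13.72, 13.48 and 13.85 in tolerant cells, against 7.37, 7.12 and 6.82 in untreated cells (rise of 6.58 ± 0.22 or 95.6-fold, adjusted p = 8.15e-08). It was 2.26 higher than in acute cells (adjusted p = 8.81e-05). C3 rose by 3.05 ± 0.13. The C1q chains rose less, C1qa by 1.06 ± 0.15. Of 10 Fc receptor and TREM genes 6 rose and 1 fell (median 0.67). Trem3, an activating receptor, was at least 6.85-fold higher, and the inhibitory receptor Fcgr2b rose by 2.47 ± 0.21.

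Uptake receptors split, with 6 of 19 higher and 4 lower (median -0.14), against 18.8% and 18.7% of all genes. With the authors' values 7 were lower. Mrc1, the mannose receptor, had levels of 10.46, 10.60 and 10.02 in tolerant cells, against 12.22, 11.94 and 12.26 in untreated cells (change of -1.78 ± 0.16, adjusted p = 4.85e-05). Olr1, a receptor for oxidised lipoprotein, was at least 20.1-fold higher, and Clec4e, which senses mycobacterial glycolipid, rose by 4.48 ± 0.22. Cd36 had 13.57, 13.46 and 12.82 in tolerant cells, against 13.96, 14.04 and 13.50 in untreated cells, with overlap (change of -0.55 ± 0.13, adjusted p = 0.00973; 0.308 without the block). Genes of alternative activation, the state that interleukin 4 induces, had 4 of 10 higher and 4 lower (median -0.03). Pparg, a lipid-sensing nuclear receptor, fell by 2.19 on the log2 scale, while Ccl17 rose by 2.07 ± 0.27 and Tgm2, a crosslinking enzyme, by 1.92 ± 0.12.

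Of 22 transcription factors of the macrophage lineage 9 were higher and 6 lower (median 0.07), against 18.8% and 18.7% of all genes. Id3, which sequesters E proteins, had levels of 12.44, 12.22 and 13.08 in tolerant cells, against 8.85, 8.67 and 10.53 in untreated cells (rise of 3.23 ± 0.23, adjusted p = 9.21e-06), and was 4.20 higher than in acute cells. Nr1h3, the oxysterol receptor LXR alpha, had 14.62, 14.46 and 14.93 in tolerant cells, against 11.97, 12.62 and 12.95 in untreated cells (rise of 2.16 ± 0.20, adjusted p = 5.17e-05). Cebpa fell by 1.19 and Mef2c by 1.13 on the log2 scale. Mef2a rose by 2.97 ± 0.36 (4.79 with the authors' values, adjusted p = 0.144). Spi1, which encodes PU.1, was not called (0.18 ± 0.14). Without tolerant array 1, 2 or 3 the lower members numbered 3.

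Inflammasome and NOD genes rose in 11 of 15 cases with 0 lower (median 0.85). Nlrp3 rose by 3.42 ± 0.19, Nod2, a sensor of bacterial peptidoglycan, by 3.36 ± 0.10 and Mefv, which encodes pyrin, by 3.25 ± 0.18. The adaptor Pycard was not called (0.26 ± 0.14). Of 25 BCL2 family and death genes 13 rose and 7 fell (median 0.41). Tnfsf10, the death ligand TRAIL, rose by 5.16 ± 0.24 and the pro-survival Bcl2a1d by 1.87 ± 0.18. Bmf, which promotes cell death, fell by 1.83 on the log2 scale and lay 4.53 above acute cells.

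Genes of adhesion, matrix and extracellular nucleotides held some of the larger changes. Of 23 integrin, adhesion and cytoskeleton genes 14 rose and 3 fell (median 1.08). Fscn1, which bundles actin, had levels of 10.60, 10.07 and 9.23 in tolerant cells, against 4.56, 5.31 and 5.19 in untreated cells (rise of 4.94 ± 0.35, adjusted p = 8.43e-06). Itgb3, a chain of the vitronectin receptor, had 8.80, 7.88 and 7.43 in tolerant cells, against 11.15, 11.83 and 11.43 in untreated cells (change of -3.43 ± 0.27, adjusted p = 1.88e-05). Its partner Itgav rose by 2.19 ± 0.14. Itgb8, another integrin chain, was at least 5.49-fold higher. Itgam and Itga6 had probes called in opposite directions. Matrix protease and coagulation genes had 10 of 22 higher and 6 lower (median 0.51), against 18.8% and 18.7% of all genes. Without the block 9 were higher and 1 lower. Timp2, an inhibitor of matrix proteases, fell by 1.01. Mmp12, the macrophage elastase, and Fn1, fibronectin, each fell by 1.54, calls lost without the block.

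Of 13 adenosine and ATP receptor genes 7 rose and 3 fell (median 0.41), against 18.8% and 18.7% of all genes. Adora2a, the receptor through which adenosine restrains inflammation, had levels of 11.70, 11.64 and 11.43 in tolerant cells, against 6.98, 6.23 and 5.73 in untreated cells (rise of 5.28 ± 0.25 or 38.8-fold, adjusted p = 5.97e-07). Adora2b rose by 2.62 ± 0.25 and was 2.49 higher than in acute cells. P2rx7, the ATP-gated channel that triggers the NLRP3 inflammasome, fell by 0.99 on the log2 scale (SE 0.13).

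Glycolysis and hypoxia genes rose in 18 of 22 cases and fell in 1 (median 0.63), and 16 were higher than in acute cells. Slc16a3, which exports lactate, had levels of 13.82, 14.31 and 13.93 in tolerant cells, against 11.27, 11.44 and 11.69 in untreated cells (rise of 2.56 ± 0.15, adjusted p = 2.54e-06). Slc2a1, a glucose transporter, rose by 1.70 ± 0.19, Pfkl, a phosphofructokinase, by 1.63 ± 0.13 and Ldha, lactate dehydrogenase, by 1.01 ± 0.12. Vegfa fell by 0.63, a call lost without the block and without tolerant array 1 or 3 or untreated array 1 or 2. Of 26 respiratory chain genes 6 were higher (23.1%, against 18.8% of all genes) and 0 lower. Their median was 0.19, and 1 gene was called without the block. The 95% interval of the change lay within ± 0.5 for 15 of the 26, against 29.3% of all genes. The 6 fell to 0 with quantile normalization or the authors' values, and to 1 without tolerant array 2 or untreated array 2, 2 without tolerant array 3 and 3 without untreated array 1. Citric acid cycle genes, listed together with Acod1, had 6 of 18 higher and 1 lower (median 0.25). In total 38.9% were called, against 37.5% of all genes. Without the block 1 was higher, Acod1, and 0 lower. Higher members numbered 1 with the authors' values, 2 with quantile normalization and 3 without tolerant array 2. The other 5 rises were small, Ogdh the largest of them at 0.80 ± 0.19.

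Genes of cholesterol synthesis and uptake were higher, 13 of 23 with 0 lower (median 0.51), and 6 without the block. Idi1, an isomerase of the isoprenoid pathway, had a mean level of 12.34 in tolerant cells, against 10.79 in untreated cells, with no overlap of the arrays (rise of 1.55 ± 0.19, adjusted p = 0.000261). The median over the 23 genes differed between the pairs, at 0.12 in replicate 1, 0.52 in replicate 2 and 0.99 in replicate 3. Without tolerant array 3, untreated array 2 or untreated array 3 the higher members numbered 8. Set against acute cells 14 of 23 were higher and 0 lower.

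The CCAAT box (CCAAT on either strand) binds NF-Y, a factor that works with SREBP in sterol genes. It was found within 250 bases of the start in 15 of 15 sterol genes of the RefSeq table, against 37.5% of all genes. The promoter of Idi1 (GRCm38.p6, chr13:8885356-8885605, plus strand) holds 2 matches, in capitals as the reverse complement and beginning 45 and 14 bases before the start.
Idi1: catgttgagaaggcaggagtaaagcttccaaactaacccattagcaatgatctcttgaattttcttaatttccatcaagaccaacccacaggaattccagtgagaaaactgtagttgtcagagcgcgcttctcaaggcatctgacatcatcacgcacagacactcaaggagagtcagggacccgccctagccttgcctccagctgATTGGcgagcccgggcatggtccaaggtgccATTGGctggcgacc
The sterol regulatory element, searched as TCACNCCAC on both strands, was found in 1 of the 15 genes and in 1.2% of all genes, and not in the Idi1 window.

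LXR targets and genes of fatty acid synthesis leaned the other way, with 8 of 18 lower and 2 higher (median -0.38), and 4 and 1 without the block. The lower members numbered 5 without tolerant array 1 or tolerant array 2. Both higher members were the receptors themselves, Nr1h3 (given above) and Nr1h2 (0.32 ± 0.09). The higher members numbered 1 without the block, without tolerant array 1 or 2 or untreated array 2 or 3, under quantile normalization and on the authors' values. Abcg1, which exports cholesterol, had levels of 13.64, 13.38 and 12.46 in tolerant cells, against 15.00, 14.74 and 13.90 in untreated cells. The change within pairs was -1.39 ± 0.12 (adjusted p = 2.43e-05; 0.0573 without the block). Abca1, the other main cholesterol exporter, was not called (-0.31 ± 0.20). Fasn, fatty acid synthase, fell by 1.22 on the log2 scale (SE 0.30), a call lost without tolerant array 2 (adjusted p = 0.0528), and Lpl, lipoprotein lipase, fell by 0.80.

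Targets of ATF4, the transcription factor of the integrated stress response that raises amino acid synthesis and import, fell in 16 of 20 cases and rose in 1 (median -1.42). Without the block 10 fell and 1 rose. Chac1, which degrades glutathione, had levels of 7.33, 6.53 and 6.04 in tolerant cells, against 12.74, 11.86 and 8.75 in untreated cells (change of -4.48 ± 0.87, adjusted p = 0.00341). Trib3, a pseudokinase induced by stress, had 8.89, 8.32 and 8.04 in tolerant cells, against 14.63, 13.33 and 10.21 in untreated cells (change of -4.31 ± 0.73, adjusted p = 0.00171). Phgdh, which starts serine synthesis, had 7.36, 7.00 and 6.58 in tolerant cells, against 12.44, 11.27 and 8.94 in untreated cells (change of -3.90 ± 0.53, adjusted p = 0.000483).

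Untreated array 3 was the lowest untreated array for all 16 ATF4 targets called lower, and the tolerant arrays lay closer together. The median over the 20 genes was -2.19 in replicate pair 1, -1.41 in pair 2 and -0.73 in pair 3. Asns, asparagine synthetase, had levels of 11.61, 11.17 and 10.18 in tolerant cells, against 15.21, 14.34 and 12.29 in untreated cells (change of -2.96 ± 0.31, adjusted p = 0.000114). Slc7a5, an amino acid transporter, had 6.49, 5.78 and 5.12 in tolerant cells, against 9.92, 9.56 and 5.54 in untreated cells, so that untreated array 3 lay within the tolerant range (change of -2.54 ± 0.55, adjusted p = 0.00616; 0.174 without the block). Atf4 itself fell by 1.11 on the log2 scale, a call lost without the block (adjusted p = 0.064). Slc7a11, the cystine importer that NRF2 also induces, was the member that rose, with 9.74, 10.22 and 10.36 in tolerant cells, against 7.82, 8.06 and 6.47 in untreated cells (2.65 ± 0.34, adjusted p = 0.000323). Leaving out replicate number 2 in all 4 groups left 8 lower, and leaving out any 1 array left between 13 and 16 of the 20 lower. The part of experiment, slide or scan day in the low untreated array 3 was not tested.

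**Figure D4:**
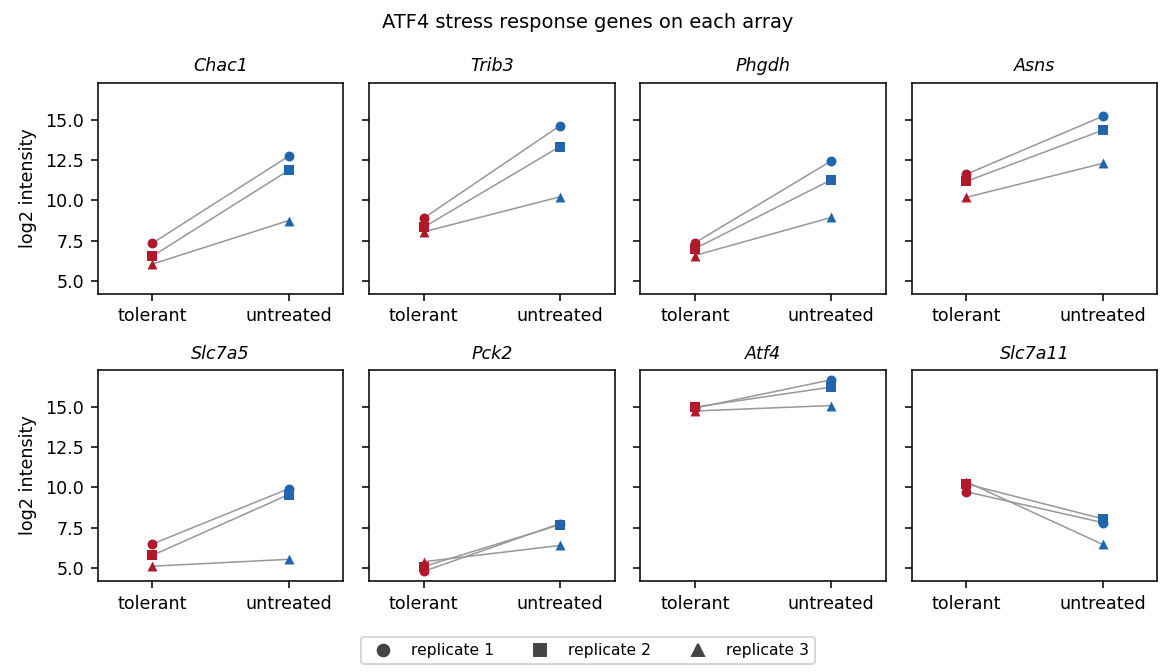
Log2 intensity of 8 ATF4 list genes on each array, tolerant arrays on the left and untreated arrays on the right of each panel, with lines joining arrays of the same replicate number. For Chac1, Trib3, Phgdh, Asns and Slc7a5 untreated replicate 3 (triangle) lies well below untreated replicates 1 and 2; Slc7a11 runs the opposite way.

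In a list of endoplasmic reticulum chaperones with stress sensors and degradation factors of that compartment, 22.2% were called, against 37.5% of all genes. Of the 18 tested 2 were higher and 2 lower (median 0.20). The lower members, Atf6 (-0.63) and Herpud1 (-1.28), are not chaperones. The call of Herpud1 was lost without the block (adjusted p = 0.149) and without any 1 tolerant or untreated array. Leaving out 1 array gave 0 to 7 higher and 1 to 2 lower. Calr, calreticulin, rose by 0.85 ± 0.22, a call lost without tolerant array 1 or 2 or untreated array 1 (adjusted p of 0.0652 to 0.0663) and with quantile normalization (adjusted p = 0.0643). Hspa5, the chaperone BiP, was not called (0.43 ± 0.19). NRF2 targets, which protect against oxidants, rose in 8 of 15 cases and fell in 1 (median 0.62), with 3 and 1 without the block. The higher members numbered 4 with quantile normalization or the authors' values, and 5 without tolerant array 3 or untreated array 2. Txnrd1, thioredoxin reductase, rose by 0.89 ± 0.13 and Cat, catalase, fell by 0.68. Hmox1, which degrades heme, had levels of 15.58, 15.84 and 15.70 in tolerant cells, against 11.53, 14.91 and 15.34 in untreated cells. Its untreated array 1 stood far below the rest, and it was not called (1.78 ± 0.88).

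Of 13 iron and metallothionein genes 3 rose and 6 fell (median -0.44), against 18.8% and 18.7% of all genes. Without the block 3 rose and 2 fell. Tfrc, the transferrin receptor, had levels of 10.17, 10.09 and 9.87 in tolerant cells, against 11.83, 11.95 and 12.03 in untreated cells (change of -1.89 ± 0.15, adjusted p = 2.2e-05). Slc39a14, which imports zinc and iron, rose by 1.82 ± 0.21 and Cp, the ferroxidase ceruloplasmin, by 1.62 ± 0.19. Of 30 lysosome genes 4 were higher and 5 lower, against 18.8% and 18.7% of all genes, with a median of -0.09 and 17 intervals within ± 0.5. The higher members numbered 2 without the block, without any 1 tolerant array or without untreated array 1, and the lower ones 3 without the block or without tolerant array 2. On values normalized by quantiles or by the authors 2 were higher and 10 lower. Ctsk and Atp6v0d2, both abundant in osteoclasts, fell by 1.90 and 1.57 on the log2 scale, while Ctsc, which activates serine proteases, rose by 1.42 ± 0.15.

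The machineries of protein synthesis and breakdown moved in opposite directions by small amounts. Cytosolic ribosomal protein genes were lower, 26 of 41 with 0 higher, all 41 changes lying between -0.72 and -0.07 (median -0.39). Without the block 5 were called, without tolerant array 1 there were 8, without tolerant array 2 there were 14, and without untreated array 1 there were 10. Rpl3 had levels of 15.61, 15.49 and 15.72 in tolerant cells, against 16.54, 16.35 and 16.10 in untreated cells (change of -0.72 ± 0.15, adjusted p = 0.00515). Constitutive proteasome genes were higher, 26 of 31 with 0 lower (median 0.49), 10 without the block and 16 without tolerant array 2. Psma6 had 14.81, 14.74 and 14.32 in tolerant cells, against 14.09, 13.68 and 13.44 in untreated cells (rise of 0.89 ± 0.13, adjusted p = 0.000755). With quantile normalization the list medians were -0.43 and 0.30, and with the authors' values -0.43 and 0.31, so both kept their sign. Set against acute cells 38 of 41 ribosomal protein genes were lower and 0 higher.

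**Figure D5:**
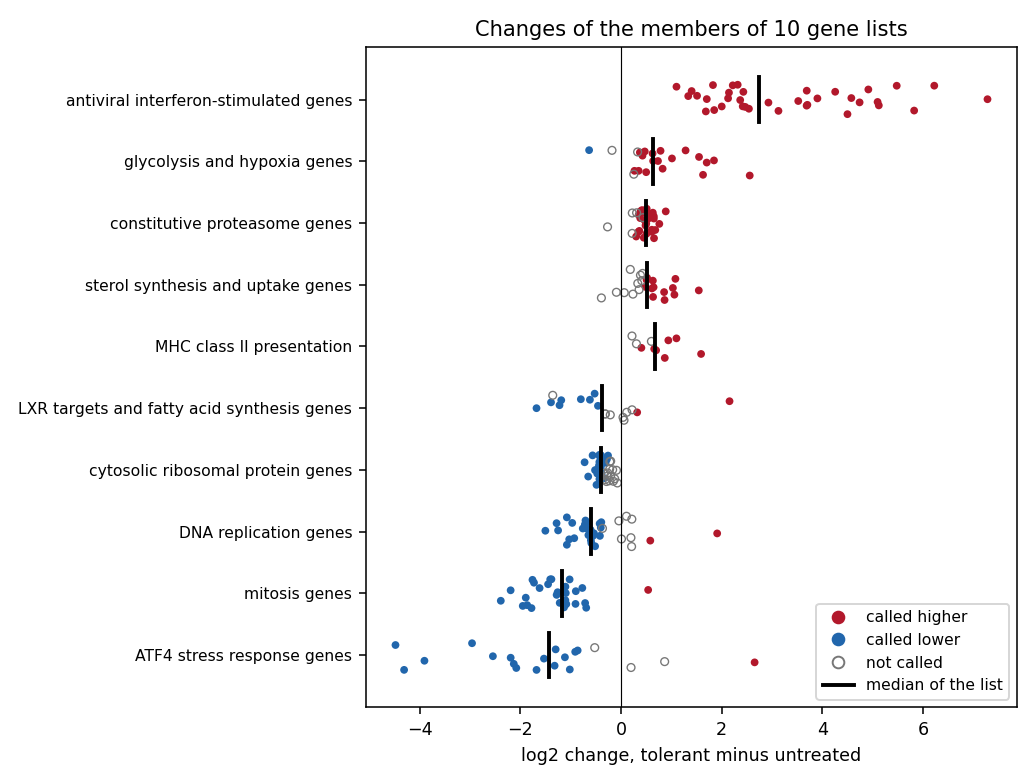
Log2 change (tolerant minus untreated, horizontal axis) of each tested member of 10 gene lists; filled points were called higher (red) or lower (blue), open points were not called, and black bars are list medians. Ribosomal protein and proteasome genes form narrow bands near -0.39 and 0.49, and mitosis genes lie below 0 apart from Mki67.

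Cell division genes were lower in tolerant cells. Of 30 mitosis genes 29 fell and 1 rose (median -1.17), 26 fell without the block, and leaving out any 1 array kept the number at 29. Kif23, a motor protein of cytokinesis, had levels of 6.37, 5.56 and 5.49 in tolerant cells, against 8.34, 8.02 and 8.22 in untreated cells (change of -2.39 ± 0.19, adjusted p = 1.72e-05). Ccnb1, the cyclin that starts mitosis, had 8.73, 7.58 and 7.96 in tolerant cells, against 9.96, 9.73 and 9.43 in untreated cells (change of -1.62 ± 0.23, adjusted p = 0.000605). Ccnb2 fell by 1.89, Bub1b, a spindle checkpoint kinase, by 1.86 and Plk1, a mitotic kinase, by 1.73 on the log2 scale. The exception was Mki67, a chromosome surface protein used to mark dividing cells, with 12.08, 11.64 and 11.68 in tolerant cells, against 11.51, 10.87 and 11.40 in untreated cells (rise of 0.54 ± 0.12, adjusted p = 0.00732). Its call was lost without the block (adjusted p = 0.078). Set against acute cells 23 of the 30 were lower and 0 higher, Mki67 among the lower at -0.78 ± 0.12.

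CCAAT boxes near the start are also known from mitosis genes, where NF-Y acts with the cell cycle repressor complex DREAM. Of 26 mitosis genes with a RefSeq promoter, 22 held CCAAT on either strand within 250 bases, against 37.5% of all genes, and 8 held the cell cycle homology region TTTGAA (both strands), against 18.3%. The promoter of Ttk, a spindle checkpoint kinase that was at least 1.60-fold lower in tolerant cells (GRCm38.p6, chr9:83834439-83834688, plus strand), holds 2 CCAAT matches, in capitals, 65 and 28 bases before the start.
Ttk: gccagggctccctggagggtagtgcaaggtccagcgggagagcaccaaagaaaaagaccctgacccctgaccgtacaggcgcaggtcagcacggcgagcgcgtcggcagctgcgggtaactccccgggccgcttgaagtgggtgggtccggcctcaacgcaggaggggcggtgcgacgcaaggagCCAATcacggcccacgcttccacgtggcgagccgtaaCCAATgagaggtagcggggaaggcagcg
Kif23 holds 1 CCAAT match. The box was thus found in most promoters of both the sterol and the mitosis list.

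DNA replication genes were lower, 25 of 34 with 2 higher (median -0.59), 14 and 1 without the block and 15 lower without tolerant array 2. The higher members numbered 1 without tolerant array 2 or 3 or untreated array 1 or 2. Cdc6, which licenses origins, fell with the block but was not called without it (adjusted p = 0.0501). Mcm2, a subunit of the replicative helicase, fell by 1.28 and Rrm2, a subunit of ribonucleotide reductase, by 1.25. Ung, which removes uracil from DNA, rose by 1.91 ± 0.29, and Pcna was not called (0.20 ± 0.16). Of 22 CDK inhibitors, G1 cyclins and growth brakes 9 rose and 7 fell (median -0.18), with 5 and 4 without the block. Cdkn1a, the inhibitor p21, rose by 1.67 ± 0.13 and Gadd45b by 1.66 ± 0.21. Sesn1, a p53 target that restrains mTORC1, had levels of 11.52, 11.28 and 10.68 in tolerant cells, against 13.35, 13.29 and 13.25 in untreated cells (change of -2.13 ± 0.20, adjusted p = 5.54e-05), which was not called on the authors' values (-2.31, adjusted p = 0.0756).

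Clock genes fell in 6 of 15 cases and rose in 2 (median -0.66), with 5 and 0 without the block, and 1 rose without tolerant array 2 or 3 or untreated array 2. Dbp, a clock output factor, had levels of 9.83, 9.77 and 9.11 in tolerant cells, against 12.41, 12.27 and 11.95 in untreated cells (change of -2.64 ± 0.15, adjusted p = 2.29e-06). Nr1d1, the repressor REV-ERB alpha, had 4.84, 4.12 and 2.66 in tolerant cells, against 6.70, 6.45 and 6.04 in untreated cells (change of -2.53 ± 0.39, adjusted p = 0.00101). Neither Clock (0.09 ± 0.15) nor Arntl, which encodes BMAL1 (-0.18 ± 0.25), was called. The hour of day at which each group was collected was not analysed here. Nuclear receptor genes fell in 6 of 15 cases and rose in 2, both LXR genes (median -0.26), with 3 and 1 without the block. The rises numbered 1 without tolerant array 1 or 2 or untreated array 2 or 3, and 3 genes fell without tolerant array 1, untreated array 1 or untreated array 3.

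Chromatin modifier genes had 7 of 24 higher and 5 lower, against 18.8% and 18.7% of all genes. Their median was 0.03, and -0.07 under quantile normalization and -0.04 on the authors' values, where 4 were higher. Setdb2, an interferon-induced histone methyltransferase, rose by 2.04 ± 0.11. Ehmt1, a methyltransferase of histone H3 lysine, rose by 2.68 ± 0.39 (5.27 with the authors' values, adjusted p = 0.0776). The DNA methyltransferases Dnmt3a and Dnmt1 fell by 1.14 and 0.94 on the log2 scale.

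Some genes stood apart from resting and acute cells alike. In tolerant cells 1328 of 20452 genes were called higher than in both, and 1555 lower than in both. Against untreated cells 37.5% of all genes were called, and against acute cells 44.5%. Both comparisons use the same tolerant arrays, so their calls are not independent. Ly6c1, a surface antigen of monocytes, was 5.58 ± 0.28 above untreated cells (adjusted p = 1.03e-06) and 4.43 ± 0.28 above acute cells (adjusted p = 1.27e-05). Ly6a, the surface antigen Sca-1, was 5.14 ± 0.46 above untreated cells (adjusted p = 4.16e-05) and 4.94 ± 0.46 above acute cells (adjusted p = 6.53e-05). The Ly6 genes are close relatives, and their probes may share signal. Smad6, which inhibits BMP signalling, was at least 11.0-fold higher than in untreated cells, and Mgarp, a mitochondrial protein, at least 10.1-fold. Lower than both were Mgll, Chac1, Phgdh and Cdkn1c, the CDK inhibitor p57, which differed by -3.29 from untreated and by -3.56 from acute cells on the log2 scale.

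Among 2763 tested long intergenic noncoding loci 290 (10.5%) were higher and 350 (12.7%) lower, smaller shares than over all genes. For 97 genes, probes of the same gene were called in opposite directions.

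The defining markers of macrophages were present, 10 of 10 tested, and their summed signal was 19.39 to 19.62 (log2) in tolerant cells and 19.20 to 19.31 in untreated cells. Of them Cd14, C1qa, Fcgr1 and Csf1r rose, and Itgam was called lower with the block but not without it, while Adgre1, which encodes F4/80, was not called (0.08 ± 0.13). Markers of other cells were measured in part, as the counts below give. Those not well above background in any group included Cd3d, Cd3g and Cd8a of T cells, Ms4a1 and Pax5 of B cells, Ncr1 of NK cells, S100a9, Mpo and Ngp of neutrophils, Flt3, Xcr1 and Clec9a of dendritic cells, and Col1a1 and Col3a1 of stroma. Of 3 measurable neutrophil markers S100a8 and Camp rose and Elane was called lower (-0.34 ± 0.11, a call lost without the block, without any 1 tolerant or acute array and without untreated array 2 or 3, at adjusted p of 0.0568 to 0.327), with summed levels of 12.13 to 12.89 in tolerant and 12.07 to 12.67 in untreated cells. Of 3 measurable dendritic cell markers Zbtb46 rose by 4.15 ± 0.16 and Ccr7 was at least 2.85-fold higher, the call of Ccr7 being lost without tolerant array 1 or untreated array 1 (adjusted p of 0.0515 to 0.0612), with summed levels of 16.42 to 16.57 in tolerant and 16.07 to 16.82 in untreated cells. Hdc, which makes histamine and marks mast cells and basophils, was at least 23.7-fold higher, and Pdgfrb, a stromal growth factor receptor, at least 19.3-fold higher. The summed level of the 2 measured mast cell and basophil markers was 8.72 to 8.99 in tolerant and 6.04 to 7.10 in untreated cells. That of the 3 stromal markers was 8.66 to 8.86 in tolerant and 6.05 to 6.86 in untreated cells. Both sums parted the groups, but not every marker rose. Tpsb2, the other mast cell marker measured, was not called (-0.05), and Cpa3, Mcpt8, Ms4a2, Prg2 and Epx were not well above background in any group. Among the stromal markers Col1a2 was not called (0.17), and Dcn was called only with the block. Of 3 platelet and erythroid markers Pf4 rose by 1.16 ± 0.18 (not called without the block) and Ppbp was at least 3.92-fold higher. Of 5 osteoclast markers 1 rose and 3 fell, among them Nfatc1, the master regulator of that lineage, by 1.24 on the log2 scale. Of 3 T cell markers Lck rose by 0.46 ± 0.15, of 2 NK cell markers 0 were called, and Cd79b, the 1 measurable B cell marker, fell by 1.45; the calls of Lck and Cd79b were lost without the block. That of Lck was also lost without tolerant array 2 or 3 or any 1 untreated array (adjusted p of 0.0745 to 0.167), under median centring or normexp and on the authors' values. The part of other cell types in the changes above was not tested.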

How the data were processed

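Each array gave 62976 spots, 59305 of them not controls. Per the file headers, the authors read the scans with Feature Extraction 10.7.3.1, and the deposited intensity values are background-subtracted processed signals. The submitters' processing notes name limma, with no version given. The authors' deposited log2 values (12 of 12 columns matched their arrays, lowest r 0.975; median 5.34 in every column, so set to one scale, with how that was done not given in the sources used here) served as an alternative only. Here log2 of the processed intensity minus each array's 75th percentile over non-control spots was used. Spots marked as outliers (135 to 233 an array) were left out, and none was saturated. Of 55681 probes 28044 passed the filter on dim probes, which asked for a signal well above background in a whole group, and gave 20452 genes, of which 14253 matched the reference. For 5346 genes with several probes the brightest one stands.

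One model over 12 arrays held group and replicate number as a block (R 4.3.3, limma 3.58.1), with 6 residual degrees of freedom. Arrays were paired by replicate number, and the labels call the replicates independent experiments. Deviations of same-numbered tolerant and untreated arrays correlated at r of 0.328 to 0.643 in 3 of 3 pairs. Same-numbered arrays also shared a slide and scan day, so this correlation cannot show which of them the number stands for. P-values were adjusted over all genes by the method of Benjamini and Hochberg, and scripts were tested on simulated data. Genes named are the 10 largest rises and falls, a panel of LPS and macrophage genes, the leading members of each list and genes apart from both other groups. Members and lists were chosen with earlier results of these data known. Probe positions are mm9 and promoters GRCm38.p6, and exons and untranslated regions were not analysed here. Arrays were few, which limits precision. Some genes of these lists are counted in the lists but not reported by name here.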

Additional observations from a re-analysis of the deposited data

How the results depend on the processing

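The counts of called genes depended on the pairing and on the arrays used. Without the replicate block 4067 genes were called, 2304 higher and 1763 lower in tolerant cells, and without it in the 6 tolerant and untreated arrays alone 3236, 1830 and 1406; with the block those 6 arrays gave 5888. Of the 40 largest and panel genes, 23 rather than 36 differed from acute cells without the block; fits of 6 arrays hold no acute cells and give no such value. Leaving out 1 array or 1 replicate number gave 4061 to 7922 called genes, 2142 to 3927 higher and 1919 to 3995 lower, and 24 to 36 of the 40 against acute cells. Leaving out replicate number 2 in all groups gave 4061. The cause was not tested. The share of calls that were higher was 50.1%, against 41.3% under quantile normalization and 40.8% on the authors' values. The median over all genes was -0.02, against -0.08 under quantile normalization, -0.06 on the authors' values and 0.13 with no filter on dim probes. So the sign of that median turned, as did that of chromatin modifier genes (0.03, against -0.07 and -0.04). Genes picked by the naming rules kept their direction wherever the main model or the alternative called them. Other named genes and uncalled ones were not checked for direction. Probes near background give only bounds, and 3 arrays a group limit how small a change can be called: the 95% interval lay within ± 0.5 for 5996 genes (29.3%).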
